A study of Drosophila melanogaster with 6 samples.

Results

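The miR-309 cluster of *Drosophila melanogaster* is a set of 8 miRNA hairpins, dme-mir-309, dme-mir-3, dme-mir-286, dme-mir-4, dme-mir-5 and the 3 copies dme-mir-6-1, dme-mir-6-2 and dme-mir-6-3. Its members were taken by precursor name from a table of small-RNA counts in ovaries, both arms included. They came to 16 of 474 rows and 14 of 466 mature miRNA names, because the 3 copies of mir-6 give the same miR-6-3p and were counted as 1 measurement. Ovaries of 7-day-old adult flies were profiled in 3 genotypes, with 2 libraries each. The wh7 flies are mutant for wuho, a gene for a WD40 repeat protein with a role in the germline. The mei-p26 flies are mutant for mei-P26, whose TRIM-NHL product works alongside miRNAs in the germline. The control strain was w1118, which carries a white-eye mutation and which the labels also give as the background of both mutants. The labels state neither zygosity nor the allele of mei-p26, and neither mutation can be read from a miRNA library.

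The cluster is made as 1 primary transcript. Drosha frees the hairpins in the nucleus, Dicer-1 cuts each into a duplex of a 5p and a 3p arm, and 1 arm is usually kept in Argonaute. In the early embryo the cluster is switched on with the first wave of zygotic transcription and helps to clear messenger RNAs that the mother loaded into the egg. It is therefore known mainly from the embryo. A miRNA recognises targets mainly through its seed, bases 2 to 8 from the 5′ end, and miRNAs that share a seed can share targets. In the annotation of Release 6, a later assembly than the BDGP5 named by the submitters, the 8 hairpins lie in a row on chromosome arm 2R with 0 other genes between them and inside the non-coding gene lncRNA:CR44504.

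The 6 libraries held 149520 to 249262 counts. A count of 0 in a library allows up to 3 counts, or 10.4 to 22.4 CPM (counts scaled to library size), and this floor and the count intervals below cover counting error only. CPM are given after TMM scaling, a factor that evens out the make-up of libraries, and means are ± SD of 2 libraries. Whether the duplicates came from separate flies is not stated, and p-values therefore cover only how far the libraries of a genotype differ, which may be technical. The ovary markers chosen (miR-989, bantam, miR-318 and miR-184) summed to 335904 and 320041 CPM in wh7, 224031 and 182209 CPM in mei-p26, and 394827 and 337826 CPM in w1118. For mei-p26 over w1118, 7 of these marker names were tested with edgeR. Only miR-318-3p was called lower (log2 fold change -2.47), miR-184-5p was called higher (1.26), and 5 did not pass. Of all tested rows, 12.7% were called lower and 21.3% higher. The log2 fold changes that did not pass were -0.51 for miR-184-3p, -0.40 for miR-989-3p and -0.22 for bantam-3p. They were -0.14 for bantam-5p and 1.20 for miR-989-5p. Whether the markers fell as a set was not tested. In bulk ovary, fewer cells of a type and less RNA per cell cannot be told apart.

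Summed over its members, the cluster was a small part of every library and was highest in wh7. It held 582 and 520 counts in wh7, 29 and 28 counts in mei-p26, and 30 and 38 counts in w1118. These were 0.389% (exact binomial 95% interval 0.358 to 0.422) and 0.228% (0.209 to 0.248) of the wh7 libraries. They were 0.0126% (0.00847 to 0.0182) and 0.0112% (0.00746 to 0.0162) of the mei-p26 libraries. In w1118 they were 0.0196% (0.0132 to 0.0280) and 0.0264% (0.0187 to 0.0362). Both wh7 libraries stood above all others. The intervals of both mei-p26 libraries overlapped that of w1118 replicate 1 and lay below that of w1118 replicate 2. On the scaled level the sum averaged 3155 ± 1153 CPM for wh7, 108 ± 15.3 CPM for mei-p26 and 248 ± 34.2 CPM for w1118, a ratio of means of 12.7 for wh7 over w1118 and 0.435 for mei-p26 over w1118. With the 3 rows of miR-6-3p added up instead of averaged, the means were 6600 CPM for wh7, 242 CPM for mei-p26 and 495 CPM for w1118.

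Of the 14 mature names, 11 had at least 1 count in some library and 3 had 0 counts in all 6, namely miR-3-5p, miR-309-5p and miR-6-3-5p. In wh7, 10 names were detected, in mei-p26 6 and in w1118 7. A filter on low counts left 4 for the test across all rows, miR-3-3p, miR-286-3p, miR-5-5p and miR-6-3p. miR-3-3p and miR-286-3p reached the filter's 52.5 CPM, which is set on counts before TMM scaling, in the wh7 libraries alone and miR-5-5p in these and 1 w1118 library, so these 3 entered the test because they were high in wh7. On that scale miR-6-3p reached it in all 6 libraries, with 60.2 CPM in mei-p26 replicate 2.

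**Figure D1:**
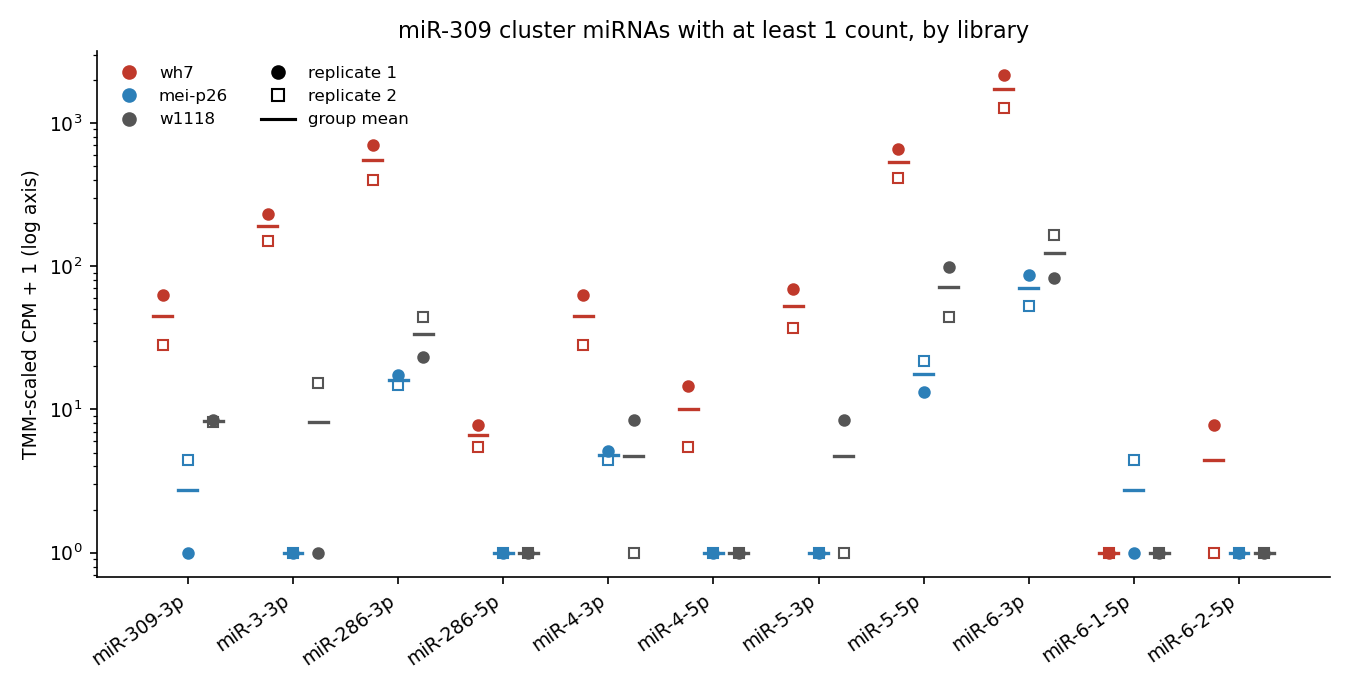
TMM-scaled CPM plus 1 on a log axis for the 11 cluster miRNAs with at least 1 count, in hairpin order, with wh7 in red, mei-p26 in blue and w1118 in grey, a point for each library and a line for each group mean. For miR-6-3p both wh7 libraries lie at 1278 CPM or above, and all other libraries at 165 CPM or below.

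miR-6-3p, made from 3 of the 8 hairpins, had the most counts of the members in each library except w1118 replicate 1, where miR-5-5p had more. In fly embryos miR-6 is known to restrain pro-apoptotic genes together with miR-11. It had 318 and 284 counts in wh7, 21 and 15 counts in mei-p26, and 11 and 23 counts in w1118. That is 2169 and 1278 CPM in wh7, 85.9 and 52.0 CPM in mei-p26, and 82.1 and 165 CPM in w1118. The wh7 libraries were far above the rest, and the mei-p26 and w1118 libraries overlapped. It ranked 43rd and 47th among the mature names in the wh7 libraries, 117th and 136th in mei-p26, and 106th and 97th in w1118. The rows of its 3 copies differed by at most 1 count in any library. The authors' counts therefore do not say which copy the reads came from, and the 5p arms, whose names are particular to each copy, had 1 count of miR-6-2-5p in wh7, 1 count of miR-6-1-5p in mei-p26 and 0 in w1118.

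miR-286-3p, which has the seed of miR-279 and miR-996, had 102 and 89 counts in wh7, 4 and 4 counts in mei-p26, and 3 and 6 counts in w1118. Its levels were 696 and 400.5 CPM in wh7, 16.4 and 13.9 CPM in mei-p26, and 22.4 and 43.0 CPM in w1118. The 3 genotypes did not overlap, with mei-p26 lowest, although the gap between mei-p26 and w1118 rests on a few counts. Its 5p arm had 1 count in each wh7 library and 0 elsewhere.

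miR-5 was the hairpin whose 5p arm prevailed. miR-5-5p had 96 and 92 counts in wh7, 3 and 6 counts in mei-p26, and 13 and 6 counts in w1118, which is 655 and 414 CPM in wh7, 12.3 and 20.8 CPM in mei-p26, and 97.0 and 43.0 CPM in w1118. The wh7 libraries were highest and the mei-p26 libraries lowest, with no overlap. miR-5-3p had 10 and 8 counts in wh7, 0 in both mei-p26 libraries, and 1 and 0 in w1118. The 5p arm made up 91.3% (86.5 to 94.7) of the 206 miR-5 counts in wh7, 100% (66.4 to 100) of 9 in mei-p26 and 95% (75.1 to 99.9) of 20 in w1118, with intervals that overlap.

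miR-3-3p and miR-309-3p carry the seed of miR-318, an abundant miRNA of follicle cells. miR-3-3p had 34 and 33 counts in wh7, 0 in both mei-p26 libraries, and 0 and 2 in w1118, so that it was seen well above the floor in wh7 alone. miR-309-3p, after which the cluster is named, had 9 and 6 counts in wh7, 0 and 1 in mei-p26, and 1 and 1 in w1118. miR-4-3p, with the seed of miR-79-3p, had 9 and 6 counts in wh7, 1 and 1 in mei-p26, and 1 and 0 in w1118. For both, each wh7 library lay above each library of the other genotypes, by counts that are few. miR-4-5p had 2 and 1 counts in wh7 and 0 elsewhere. Of the miR-3 reads in wh7 100% (94.6 to 100) of 67 were from the 3p arm, of the miR-286 reads 99.0% (96.3 to 99.9) of 193, and of the miR-4 reads 83.3% (58.6 to 96.4) of 18.

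The comparison of wh7 with w1118 asks which ovarian miRNAs differ with the wuho mutation. All 4 tested cluster miRNAs were higher in wh7 (edgeR quasi-likelihood test, Benjamini-Hochberg adjusted p under 0.05), where 11.3% of the 150 tested rows were called higher. Since 3 of the 4 passed the filter through wh7, that count is a description. Here and below, the shares of rows include the cluster's own rows, which are 6 of the 150 tested, and miR-6-3p has 3 of these. Without the filter, 4 of the 11 members with counts were called higher and 0 lower, against 6.29% of 286 rows called higher. The mean of miR-6-3p was 1724 ± 630.2 CPM in the wh7 libraries and 123 ± 58.5 CPM in those of w1118, and its log2 fold change was 3.79 ± 0.45 (SE, 95% interval 2.86 to 4.72, edgeR adjusted p = 2.51e-06). miR-286-3p changed by 4.03 ± 0.59 (adjusted p = 3.96e-05) and miR-5-5p by 2.92 ± 0.54 (adjusted p = 0.000609) on the log2 scale. For miR-3-3p, 67 counts in wh7 stood against 2 in w1118, a scaled ratio of 24.8 (exact 95% counting interval 6.61 to 209) with an edgeR adjusted p of 0.00128. The median log2 fold change over all 150 rows was 0.08.

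With each library left out on the same 150 rows, all 4 calls were kept. When the filter was recomputed on the remaining 5 libraries, the calls of miR-3-3p (edgeR adjusted p = 0.115) and miR-5-5p (adjusted p = 0.0539) were lost without wh7 replicate 1, at log2 fold changes of 4.17 for miR-3-3p and 2.45 for miR-5-5p. The log2 fold change of miR-5-5p was 3.68 without w1118 replicate 1 and 2.30 without w1118 replicate 2, and that of miR-3-3p was 3.74 without w1118 replicate 1. Without w1118 replicate 2, miR-3-3p had 0 counts in w1118. The 4 intervals of the log2 fold change overlapped one another, the lowest running from 1.79 to 4.05 for miR-5-5p and the highest from 2.69 to 6.45 for miR-3-3p. Among members that were not tested, miR-309-3p summed to 15 counts in wh7 against 2 in w1118, or 5.56-fold after scaling (1.29 to 50.1). For miR-4-3p the sums were 15 in wh7 against 1 in w1118, or 11.1-fold (1.71 to 468), and for miR-5-3p 18 in wh7 against 1 in w1118, or 13.3-fold (2.11 to 556). Fitted without the filter, these 3 had edgeR adjusted p-values of 0.271, 0.129 and 0.0620 and did not pass. In the authors' deposited table, by a test that is not given, miR-6-3p, miR-286-3p, miR-5-5p and miR-3-3p had adjusted p-values of 7.75e-15, 6.74e-07, 7.07e-05 and 0.00611 in this comparison.

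**Figure D2:**
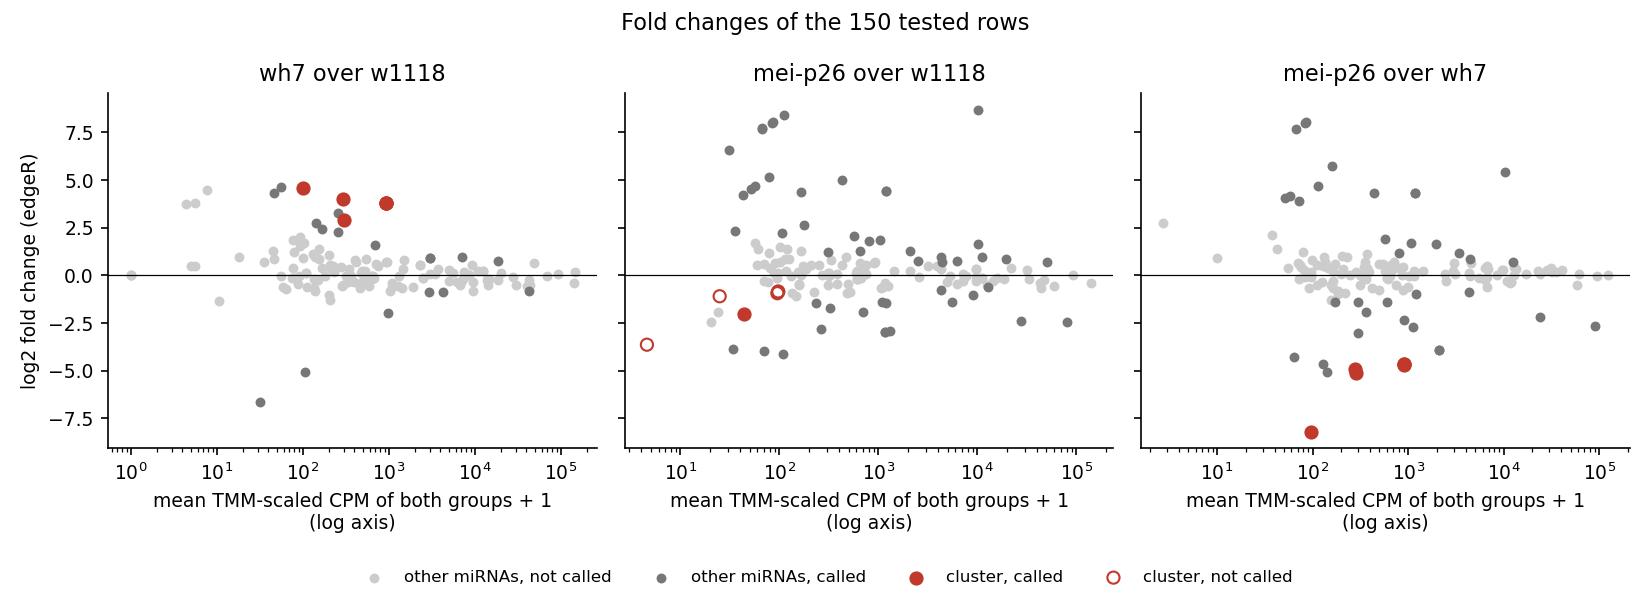
Log2 fold change (edgeR) against the mean TMM-scaled CPM of both groups plus 1 on a log axis, for the 150 tested rows in each of the 3 comparisons, with cluster rows in red, called cluster rows filled, and other rows in grey, darker where called. The cluster rows lie above 0 for wh7 over w1118, from 2.92 to 4.57, and below 0 for mei-p26 over wh7, from -8.21 to -4.64, where the lowest, miR-3-3p, has 0 counts in mei-p26 and its fitted value depends on the prior count.

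The comparison of mei-p26 with w1118 asks the same of the mei-P26 mutation, and here 1 of the 4 tested cluster miRNAs passed. miR-5-5p was called lower, with means of 16.5 ± 6.02 CPM in the mei-p26 libraries and 70.0 ± 38.2 CPM in those of w1118 and a log2 fold change of -2.01 ± 0.70 (edgeR adjusted p = 0.0339), where 12.7% of rows were called lower and 21.3% higher. Over all rows 32 were higher and 19 lower, and with upper-quartile scaling 22 were higher and 25 lower. The counts behind the call of miR-5-5p were 9 in mei-p26 and 19 in w1118. Its call was lost without mei-p26 replicate 1, mei-p26 replicate 2 or w1118 replicate 1, without wh7 replicate 1 when the filter was recomputed, with total-count scaling, with limma-voom and in a fit of the compared groups alone, at adjusted p-values of up to 0.274. Its log2 fold change was -1.35 without w1118 replicate 1, -2.67 without w1118 replicate 2 and -2.71 without mei-p26 replicate 2. In the authors' deposited table it had an adjusted p of 0.440. The other 3 did not pass. miR-6-3p had a log2 fold change of -0.85 ± 0.50 (95% interval -1.89 to 0.18, edgeR adjusted p = 0.187) and miR-286-3p of -1.09 ± 0.80 (-2.76 to 0.57, adjusted p = 0.298). For miR-3-3p, mei-p26 had 0 counts and w1118 had 2, both at or under the floor. The intervals of miR-6-3p and miR-286-3p include both a decrease and an increase, so the test does not show that their levels are alike. Without the filter, 1 of 11 members was called lower, against 7.34% of 286 rows.

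Between the mutants, all 4 tested cluster miRNAs differed and were lower in mei-p26 than in wh7, where 14.7% of rows were called lower and 27.3% in either direction. As 3 of the 4 passed the filter through wh7 and in 0 mei-p26 libraries, this count is also a description. The mean of miR-6-3p was 69.0 ± 24.01 CPM in the mei-p26 libraries and 1724 ± 630.2 CPM in those of wh7, and its log2 fold change was -4.64 ± 0.45 (edgeR adjusted p = 4.39e-08). miR-286-3p changed by -5.12 ± 0.60 (adjusted p = 6.15e-07) and miR-5-5p by -4.93 ± 0.60 (adjusted p = 9.83e-07), the last by -5.53 without mei-p26 replicate 2. Having 0 counts in mei-p26 and 67 in wh7, miR-3-3p was at least 16.8-fold lower in mei-p26, set against the floor of 3 counts in each mei-p26 library. Without the filter, miR-309-3p (1 count in mei-p26 and 15 in wh7), miR-4-3p (2 in mei-p26 and 15 in wh7) and miR-5-3p (0 in mei-p26 and 18 in wh7) were also called lower, at edgeR adjusted p-values of 0.00704, 0.0215 and 0.000265. That made 7 of 11 members with counts called lower and 0 called higher, against 10.1% of 286 rows lower and 7.69% higher. The 286 rows also include the cluster's own, with each copy of miR-6-3p as a separate row, while the members count it once. In this comparison the fit without the filter gave the 4 tested members much smaller p-values at nearly the same fold changes. For miR-6-3p it gave -4.65 with an edgeR adjusted p of 1.43e-22. The calls of miR-309-3p, miR-4-3p and miR-5-3p rest on that fit and on few counts. Both comparisons with wh7 share the wh7 libraries, and both with w1118 share the w1118 libraries.

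**Figure D3:**
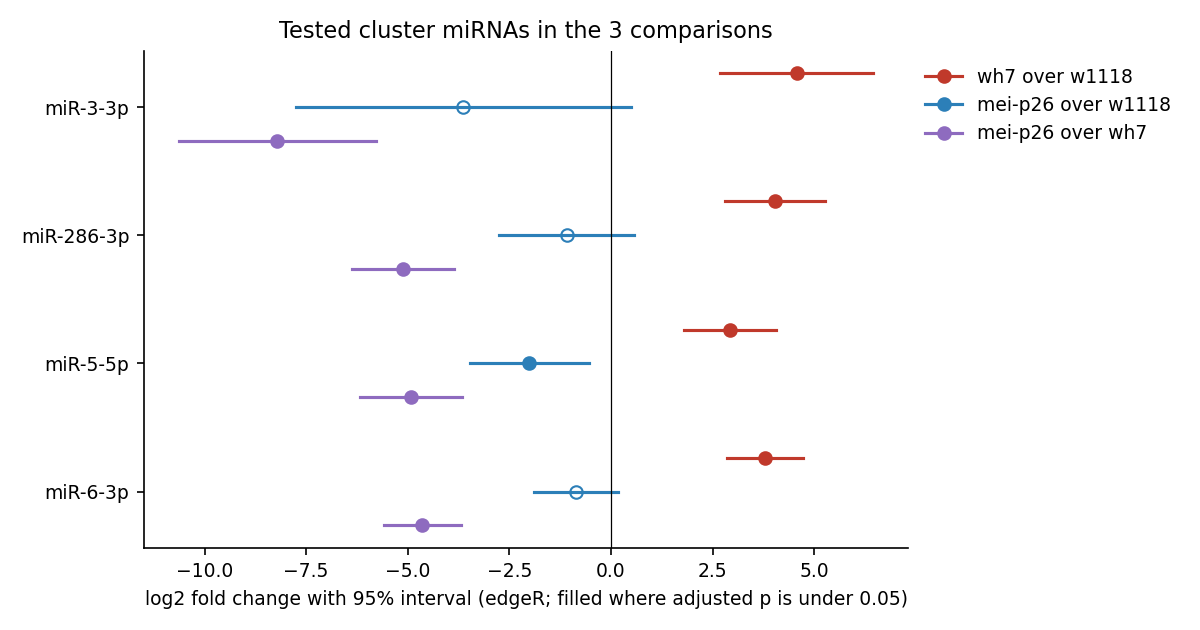
Log2 fold change with its 95% interval for the 4 tested cluster miRNAs in the 3 comparisons, filled where the edgeR adjusted p is under 0.05. The intervals of wh7 over w1118 lie above 0, those of mei-p26 over wh7 below 0, and of mei-p26 over w1118 that of miR-5-5p alone, from -3.48 to -0.55, leaves out 0.

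The wh7 duplicates differed from each other in the level of the cluster, while its make-up was nearly the same in both. Every tested member was higher in replicate 1 than in replicate 2, by 1.74-fold for miR-286-3p, 1.70-fold for miR-6-3p, 1.58-fold for miR-5-5p and 1.56-fold for miR-3-3p, on CPM plus 1, while the median row had a ratio of 1.01. These ratios were above those of 88.0 to 93.3% of the 150 rows. miR-6-3p held 54.6% (50.5 to 58.7) of the cluster's counts in replicate 1 and 54.6% (50.2 to 59.0) in replicate 2. miR-286-3p held 17.5% and 17.1%, miR-5-5p 16.5% and 17.7%, and miR-3-3p 5.84% and 6.35%. Between members such shares also carry the preferences of adaptor ligation, which differ with sequence.

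Over both libraries of a genotype, miR-6-3p held 54.6% (51.6 to 57.6) of 1102 cluster counts in wh7, 63.2% (49.3 to 75.6) of 57 in mei-p26 and 50% (37.6 to 62.4) of 68 in w1118. miR-5-5p held 17.1% (14.9 to 19.4) in wh7, 15.8% (7.48 to 27.9) in mei-p26 and 27.9% (17.7 to 40.1) in w1118. miR-286-3p held 17.3% (15.1 to 19.7) in wh7, 14.04% (6.26 to 25.8) in mei-p26 and 13.2% (6.23 to 23.6) in w1118. All these intervals overlap between genotypes, and the differences were not tested. The w1118 libraries also differed from each other, with miR-5-5p at 43.3% (25.5 to 62.6) of 30 counts in replicate 1 and 15.8% (6.02 to 31.3) of 38 in replicate 2. The shares of miR-6-3p depend on counting its reads once.

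**Figure D4:**
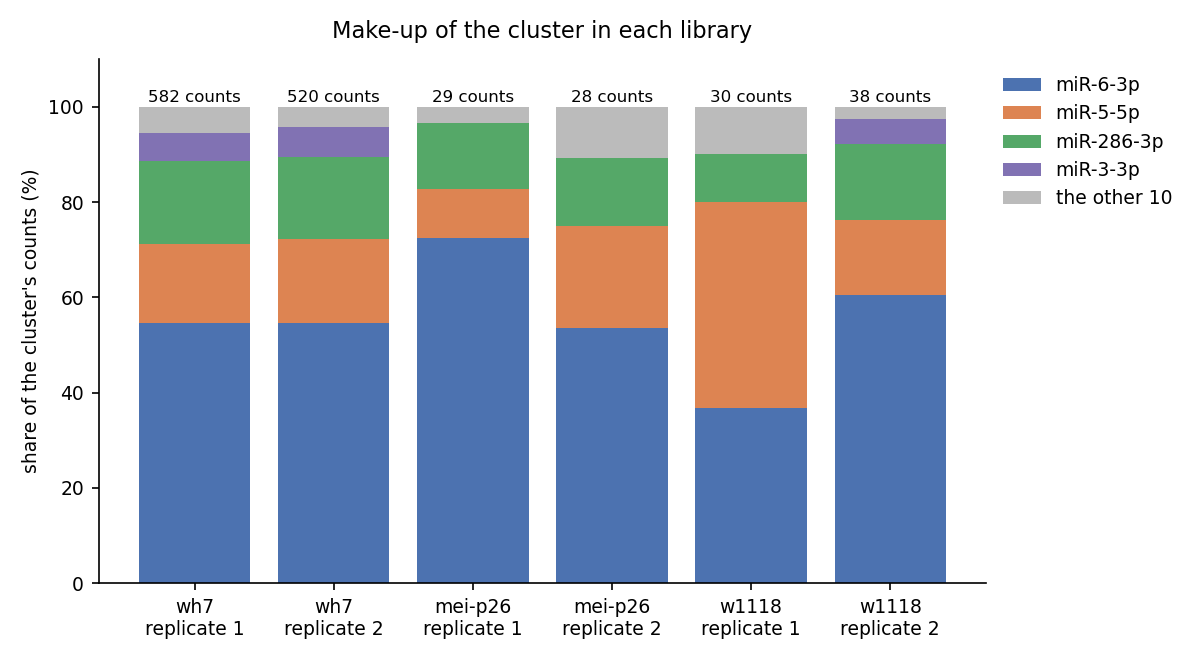
Share of the cluster's counts in percent held by miR-6-3p, miR-5-5p, miR-286-3p, miR-3-3p and the other 10 members in each library, with the cluster's counts above each bar. The bars of both wh7 libraries, with 582 and 520 counts, are nearly alike, with miR-6-3p at 54.6% in each.

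Summed, other miRNAs with the cluster's seeds were far more abundant, although some single partners were not. miR-13a-3p and miR-308-3p had fewer counts than miR-6-3p in every library, and miR-2c-3p in both wh7 libraries. miR-9a-3p had fewer counts than miR-4-3p in wh7 replicate 1 and w1118 replicate 1. miR-318-3p, with the seed of miR-3 and miR-309, was at 163341 and 146915 CPM in wh7, 30437 and 19466 CPM in mei-p26, and 134948 and 140575 CPM in w1118. miR-3-3p and miR-309-3p made up 0.179% (0.130 to 0.241) and 0.119% (0.0849 to 0.163) of the reads with this seed in wh7, 0% (up to 0.0496) and 0.0178% (0.000451 to 0.0992) in mei-p26, and 0.00553% (0.000140 to 0.0308) and 0.0153% (0.00315 to 0.0447) in w1118. miR-318-3p was lower in mei-p26 than in w1118, with a log2 fold change of -2.47 ± 0.26 (edgeR adjusted p = 1.80e-07) and had 0.17 ± 0.24 for wh7 over w1118 (adjusted p = 0.699).

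miR-6-3p made up 4.39% (3.93 to 4.89) and 2.43% (2.16 to 2.73) of the reads with its seed in wh7, 0.144% (0.0892 to 0.220) and 0.107% (0.0602 to 0.177) in mei-p26, and 0.184% (0.0921 to 0.330) and 0.335% (0.213 to 0.502) in w1118. The other 7 miRNAs with this seed are miR-2a-3p, miR-2b-3p, miR-2c-3p, miR-11-3p, miR-13a-3p, miR-13b-3p and miR-308-3p. Summed, they were at 47237 and 51307 CPM in wh7, 59540 and 48331 CPM in mei-p26, and 44448 and 49023 CPM in w1118, and the groups overlapped. Of the 5 of them that were tested, 0 passed in any of the 3 comparisons with edgeR. Of all rows, 15.3% were called in wh7 against w1118, 34% in mei-p26 against w1118 and 27.3% in mei-p26 against wh7, so a count of 0 among 5 says little. In wh7 against w1118 their median log2 fold change was 0.04, against 0.08 over all rows. It was 0.23 against 0.08 in mei-p26 against w1118 and 0.30 against 0.13 in mei-p26 against wh7.

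miR-286-3p made up 1.75% (1.43 to 2.12) and 0.984% (0.791 to 1.21) of the reads with its seed in wh7, 0.0330% (0.00898 to 0.0843) and 0.0295% (0.00804 to 0.0755) in mei-p26, and 0.0507% (0.0105 to 0.148) and 0.0964% (0.0354 to 0.210) in w1118. miR-279-3p had a log2 fold change of -0.10 ± 0.22 (edgeR adjusted p = 0.822) and miR-996-3p of -0.27 ± 0.22 (adjusted p = 0.471) in wh7 against w1118. miR-4-3p made up 5.96% (2.76 to 11.01) and 2.28% (0.842 to 4.90) of the reads with its seed in wh7, where miR-79-3p (log2 fold change -0.53 for wh7 over w1118, which did not pass) and miR-9a-3p held the rest. Its share was 0.415% (0.0105 to 2.29) and 0.328% (0.00830 to 1.81) in mei-p26, and 0.485% (0.0123 to 2.67) and 0% (up to 1.75) in w1118.

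**Figure D5:**
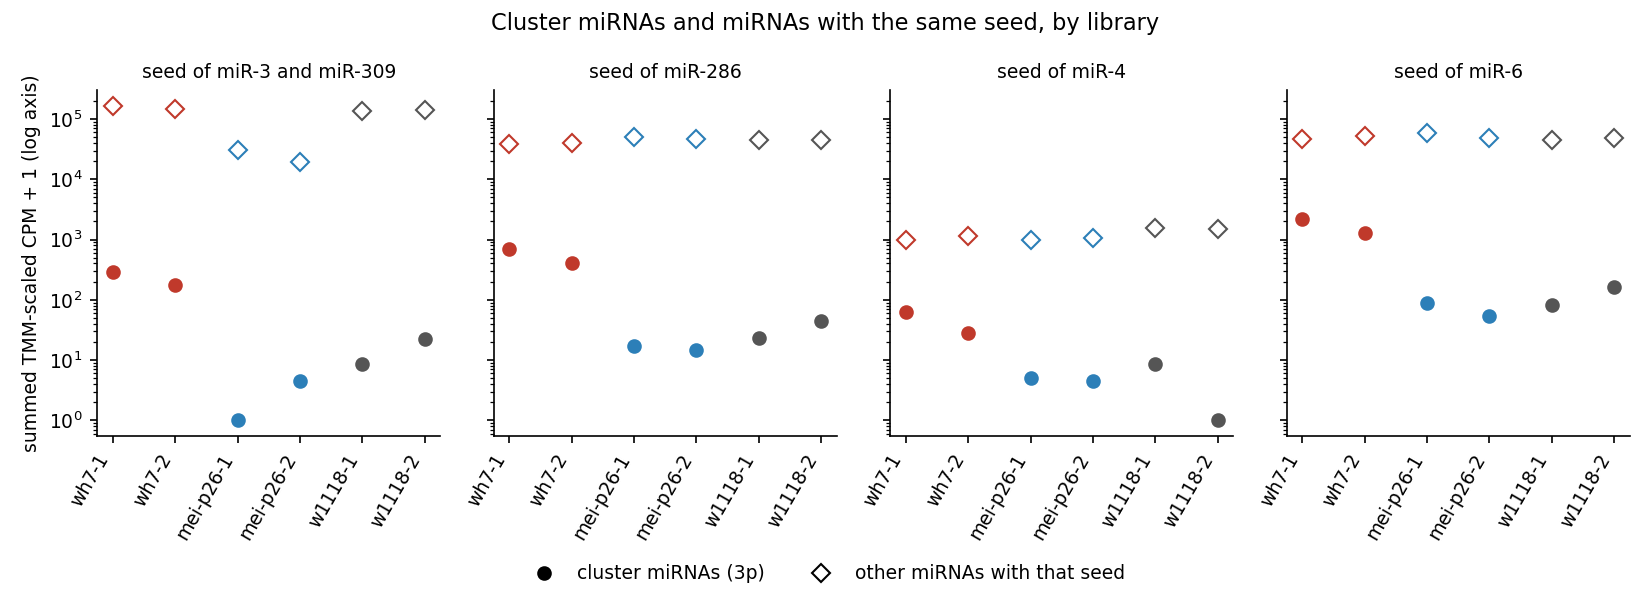
Summed TMM-scaled CPM plus 1 on a log axis in each library for the cluster's 3p miRNAs (filled circles) and for other miRNAs with the same seed (open diamonds). The cluster miRNAs lie below their seed partners in all 6 libraries, for the seed of miR-6 in wh7 at 2169 and 1278 CPM for miR-6-3p and 47237 and 51307 CPM for the others.

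The cluster was also set beside other miRNAs known from early embryos: miR-1 of muscle, miR-9a of sensory precursors, miR-10, miR-iab-4 and miR-iab-8 of the Hox complexes, miR-92a, miR-124 of neurons, miR-184, and the maternally supplied miR-310 to miR-313. Of their 24 mature names, 16 were tested. In wh7 against w1118, 3 rose and 0 fell (edgeR adjusted p under 0.05), where 11.3% of all rows were called higher and 4% lower, with a median log2 fold change of 0.14 against 0.08 over all rows. These were miR-10-3p (2.29 ± 0.53), miR-9a-5p (1.58 ± 0.35) and miR-1-3p (0.76 ± 0.25). The count was 1 without mei-p26 replicate 2, w1118 replicate 2 or wh7 replicate 2, and 0 without w1118 replicate 2 when the filter was recomputed. The 6 tested arms of miR-310, miR-311, miR-312 and miR-313 did not pass in wh7, with log2 fold changes from -0.58 for miR-313-3p to 0.15 for miR-311-5p. Both arms of miR-124 had 0 counts in all libraries.

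In mei-p26 against w1118, 8 of the 16 rose and 0 fell, where 21.3% of all rows were called higher and 12.7% lower, with a median log2 fold change of 0.86 against 0.08 over all rows. They were 5 arms of miR-310, miR-311 and miR-312, with miR-9a-5p (1.83 ± 0.35), miR-184-5p (1.26 ± 0.44) and miR-1-3p (0.85 ± 0.25). The count was 3 without mei-p26 replicate 2 and 4 without w1118 replicate 1. With the filter recomputed it was 3 without wh7 replicate 1 and 5 without w1118 replicate 1. The list had 6 higher and 2 lower without w1118 replicate 2, and 4 higher and 1 lower with upper-quartile scaling. Between the mutants, 4 were higher in mei-p26 and 1, miR-10-3p (-1.42 ± 0.47), was lower, which makes 5 called, where 12.7% of all rows were called higher, 14.7% lower and 27.3% in either direction. These were 3 without wh7 replicate 2 and 8 without w1118 replicate 1, and 8 without mei-p26 replicate 2 when the filter was recomputed. miR-9a-5p, called in both mutants, had 0.24 ± 0.33 for mei-p26 over wh7 (95% interval -0.44 to 0.92, edgeR adjusted p = 0.647).

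Markers of other tissues were read in the same libraries. Muscle was read almost wholly through miR-1-3p, which held 22981 of the 23097 CPM summed for wh7 replicate 1. The other muscle miRNA, miR-133, was near the floor. Its 3p arm had 1 to 3 counts in every library and averaged 14.8 CPM for w1118, 10.2 CPM for wh7 and 5.83 CPM for mei-p26. Its 5p arm had 0 counts throughout. Whether the muscle names rose as a set was not tested. The 4 muscle names summed to 23097 and 24079 CPM in wh7, 22600 and 27607 CPM in mei-p26, and 16861 and 10993 CPM in w1118, and 1 of 2 tested, miR-1-3p, was higher in wh7. The 3 gut and Malpighian tubule names, all of miR-281, summed to 3936 and 4671 CPM in wh7, 237 and 308 CPM in mei-p26, and 2112 and 2350 CPM in w1118, and 1 of 2 tested was higher in wh7. The 8 nervous system names summed to 54.6 and 22.5 CPM in wh7, 28.6 and 10.4 CPM in mei-p26, and 7.46 and 14.3 CPM in w1118, with 0 tested and 5 at 0 in all libraries. Of the 20 testis names, 14 were tested and 0 passed in wh7 against w1118, with sums of 1180 and 1264 CPM in wh7, 4256 and 5937 CPM in mei-p26, and 1299 and 932 CPM in w1118. Of the 6 names of later-stage follicle cells, 5 were tested and 0 passed in wh7 against w1118, with sums of 332029 and 304471 CPM in wh7, 177252 and 135313 CPM in mei-p26, and 379675 and 316386 CPM in w1118. In mei-p26 against w1118, 1 of 2 muscle names and 7 of 14 testis names were higher, and 2 of 2 gut and 3 of 5 follicle cell names were lower, where 21.3% of all rows were called higher and 12.7% lower. In wh7 against w1118, 11.3% of all rows were called higher and 4% lower. The part of other tissues in the cluster's rise was not tested.

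Outside the cluster, the miRNAs whose log2 CPM followed the cluster's sum most closely over the 6 libraries were miR-956-3p (Pearson's r = 0.939), miR-1012-3p (0.875), miR-8-5p (0.854), miR-314-3p (0.852) and miR-970-3p (0.837), of 144 rows compared. The r rests on 3 genotypes and libraries that share depth and scaling, and it is a description. miR-956-3p had 26 and 69 counts in wh7, 1 and 4 counts in mei-p26, and 4 and 6 counts in w1118. Unlike the cluster, it was lower in wh7 replicate 1 than in replicate 2.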

How the data were processed

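Ovarian total RNA of 3 genotypes, 2 libraries each, was made into small-RNA libraries with the QIAseq miRNA kit, which adds molecular identifiers at cDNA synthesis, per the labels' protocols. Not given in the sources used here are the aligner, the counter, the annotation and whether identifiers were collapsed. bcl2fastq 2.20, Trimmomatic and the build BDGP5 are named in the submitters' processing notes. The authors deposited whole-number counts per hairpin arm, with CPM, signed fold changes (treated as scores) and p-values. Deposited fold and p-values are quoted where named, and the deposited CPM were not used.

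From the counts, edgeR 4.0.16 in R 4.3.3 fitted all 6 libraries together (TMM, rows reaching the filterByExpr minimum count of 10, quasi-likelihood test, 3 residual degrees of freedom). p-values were Benjamini-Hochberg adjusted over 150 rows, with a threshold of 0.05. The fit was also run on simulated counts, with changes put into wh7 only and with means and spread taken from these libraries. The outcome is not reported here and bears on no call. The standard error is the log2 fold change divided by the root of F. Shares have exact Clopper-Pearson intervals and ratios of few counts exact conditional ones. The deposited counts show the 3 rows of miR-6-3p nearly equal, so their rounded mean was used, and whether reads were counted on each copy or divided is not given. limma 3.58.1 and DESeq2 1.42.0 served as alternatives, with other scalings and filters and each library left out. The 188 rows with 0 counts could not be tested.

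Named by rule were all members, tested miRNAs with the same seed, the 5 most alike, and miRNAs of the early embryonic list that passed. Untested seed partners, miR-313-3p, miR-311-5p in wh7, miR-124, miR-133 and other single markers of ovary and other tissues were named outside it, after their values were seen. The members and lists were chosen with earlier results of these data known. Seed partners were taken from known families, not from sequences, and that list was written after the counts had been read, in place of the planned search of sequences.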

Additional observations from a re-analysis of the deposited data

How the results depend on the processing

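The log2 fold changes of the 4 tested cluster miRNAs kept their direction under all alternatives that gave a value, except that miR-3-3p in mei-p26 against w1118 came to 0 without w1118 replicate 2, where both genotypes had 0 counts. Their calls in mei-p26 against wh7 were kept in each of these. As miR-3-3p, miR-286-3p and miR-5-5p entered the test because they were high in wh7, their steady direction against wh7 is a description. In wh7 against w1118 miR-5-5p and miR-3-3p no longer passed without wh7 replicate 1 when the filter was recomputed, an alternative chosen after seeing the data. Counts of calls were less stable. With a mean count of at least 50, 9 rows passed in wh7 against w1118, 26 in mei-p26 against w1118 and 26 in mei-p26 against wh7, of which 1, 0 and 1 were cluster miRNAs, since fewer were tested. The early embryonic list then had 1 call in wh7 against w1118. In mei-p26 against w1118 the cluster had 0 calls with limma-voom, with only the groups compared and with total-count scaling. Without a filter it had 7 in mei-p26 against wh7. The early embryonic list had 5 calls in mei-p26 against w1118 with upper-quartile scaling, and 8 in mei-p26 against wh7 at a threshold of 0.1. Seed partners had 3 calls in mei-p26 against w1118 with total-count scaling and 2 with upper-quartile scaling, and 2 in mei-p26 against wh7 with total-count scaling. The cause was not tested. Total-count scaling moved the median log2 fold change of all rows by 0.27 in mei-p26 against w1118 and by 0.19 in mei-p26 against wh7, and upper-quartile scaling by -0.22 and -0.16 in these. With the rows of miR-6-3p summed, also chosen after seeing the data, the cluster was at 6600 CPM for wh7, 242 CPM for mei-p26 and 495 CPM for w1118.

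With each library left out, 10 to 30 rows passed in wh7 against w1118 (12 without mei-p26 replicate 2, 13 without wh7 replicate 2 and, with the filter recomputed, 10 without wh7 replicate 1), 34 to 59 in mei-p26 against w1118 and 33 to 55 in mei-p26 against wh7. Cluster calls ranged from 2 to 4, 0 to 1 and 4 to 7 in these comparisons, early embryonic calls from 0 to 4, 3 to 8 and 3 to 8, and calls of seed partners from 0 to 0, 1 to 3 and 1 to 1. The summed level was 2339.9 to 3969.9 CPM for wh7, 97.1 to 119 CPM for mei-p26 and 224 to 272 CPM for w1118. Where a genotype had 1 library left, that library is assumed to vary like the others.

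Same-numbered libraries were linked in the sample titles by their number only. Their deviations from the group means correlated at 0.06 for wh7 and mei-p26, -0.30 for wh7 and w1118 and -0.02 for mei-p26 and w1118. With 2 libraries per genotype, these values cannot show whether same-numbered libraries shared a batch. A fit with the replicate number as a block called 26 rows in wh7 against w1118, 50 in mei-p26 against w1118 and 41 in mei-p26 against wh7, with 4, 1 and 4 cluster miRNAs. The replicate block gave miR-6-3p a log2 fold change of 3.73 in wh7 against w1118 and changed no call of the cluster. Depth limits miR-309-3p, miR-4-3p, miR-5-3p and all members in mei-p26 and w1118, where most had under 10 counts a library.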
